A study of Homo sapiens with 10 samples.

Results

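Expression of 10 aldo-keto reductase genes was followed through APEX1 knockout in lung adenocarcinoma cells: AKR1A1, AKR1B1, AKR1B10, AKR1B15, AKR1C1, AKR1C2, AKR1C3, AKR1C4, AKR7A2 and AKR7A3. They were chosen by symbol, as the 10 rows with these names among the 28281 gene symbols counted, and all 10 were found. The product of APEX1, the APE1 protein, cuts DNA at abasic sites during base excision repair and also keeps several transcription factors in a reduced state. RNA came from cultured A549 and NCI-H1944 (H1944 below) cells, both established human lung adenocarcinoma lines, either wild type (WT) or with APEX1 knocked out (KO). There were 3 libraries of each genotype for A549 and 2 of each for H1944. The KO columns of A549 are known only by the numbers 16, 65 and 66, which name no genotype, and were placed in the KO group because no other labelled group was left for them. The labels state neither how the gene was knocked out nor if replicates are separate clones or cultures, so p-values here cover only variation among replicates that could be technical.

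Aldo-keto reductases are soluble enzymes that use NADPH to reduce aldehydes and ketones to alcohols. Subfamily 1B handles sugars, retinaldehyde and lipid aldehydes, subfamily 1C handles steroids and prostaglandins, and subfamily 7A handles aflatoxin dialdehyde and succinic semialdehyde. Several of these genes, AKR1B10 and the 1C genes foremost, are known targets of NRF2, the transcription factor encoded by NFE2L2 that KEAP1 holds down. A549 and H1944 are both used as models of lung cancer with high NRF2 activity.

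The 10 genes lie on 3 chromosomes of GRCh38 (GENCODE v29). AKR1C1 (chr10:4963253-4983283, plus strand), AKR1C2 (chr10:4987400-5018031, minus), AKR1C3 (chr10:5035354-5107686, plus) and AKR1C4 (chr10:5195462-5218949, plus) are neighbours. AKR1B1 (chr7:134442350-134459284, minus), AKR1B10 (chr7:134527592-134541408, plus) and AKR1B15 (chr7:134549136-134579875, plus) form another cluster. AKR1A1 (chr1:45550543-45570049, plus), AKR7A2 (chr1:19303965-19312146, minus) and AKR7A3 (chr1:19282558-19289250, minus) are on chromosome 1. The counts of each gene have to be read against how alike the copies are. The coding sequences of AKR1C1 and AKR1C2 were 98.05% identical, with 19 differing bases of 972, and the other pairs of 1C genes were 87.76% to 91.46% identical. The stretch below is the 60 bases in which AKR1C1 and AKR1C2 differ most: coding bases 103 to 162, counted from the A of the start codon, which lie in exon 2 of 9 in each gene. Capitals mark, in AKR1C2, every base at which another of the genes differs, and in the other lines the bases that differ from AKR1C2, which were 10 in AKR1C1, 13 in AKR1C3 and 12 in AKR1C4.
AKR1C2: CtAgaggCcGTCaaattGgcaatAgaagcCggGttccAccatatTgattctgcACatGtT
AKR1C1: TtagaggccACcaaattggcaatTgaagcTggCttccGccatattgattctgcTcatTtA
AKR1C3: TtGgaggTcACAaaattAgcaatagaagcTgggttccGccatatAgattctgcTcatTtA
AKR1C4: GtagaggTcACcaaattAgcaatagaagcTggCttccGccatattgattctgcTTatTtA

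These stretches lie at chr10:5001604-5001663 (AKR1C2), chr10:4965932-4965991 (AKR1C1), chr10:5096428-5096487 (AKR1C3) and chr10:5200199-5200258 (AKR1C4). Reads were 150 bases long and paired. Of all 150-base windows of the coding sequence, 4.98% in AKR1C1 and 7.65% in AKR1C2 occur unchanged in a transcript of another gene, and 2.67% in AKR1C3. At 50 bases the shares were 54.5%, 57.2% and 23%. How reads with several alignments were counted is not given in the sources used here, so the split of counts among AKR1C1, AKR1C2 and AKR1C3 is uncertain. These shares do not measure how uncertain it is, since they cover only exact matches and leave out exon sequence outside the coding part.

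In subfamily 1B the copies differ more. AKR1B10 and AKR1B1 were 77.14% identical over their aligned bases, AKR1B10 and AKR1B15 93.48%, and no 150-base window of any of the 3 coding sequences occurs in another gene's transcript. The following 60 bases, coding bases 358 to 417 of AKR1B10 in exon 4 of 10, show both distances. Capitals mark in AKR1B10 the bases that differ from AKR1B1, and in the other lines the bases that differ from AKR1B10, which were 31 in AKR1B1 and 6 in AKR1B15.
AKR1B10: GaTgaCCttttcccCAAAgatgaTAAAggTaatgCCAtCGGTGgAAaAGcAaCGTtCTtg
AKR1B1: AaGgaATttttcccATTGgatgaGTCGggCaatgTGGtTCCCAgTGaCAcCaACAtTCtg
AKR1B15: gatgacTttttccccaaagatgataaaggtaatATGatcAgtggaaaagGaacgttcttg

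They lie at chr7:134533010-134533069 (AKR1B10), chr7:134449732-134449791 (AKR1B1) and chr7:134571610-134571669 (AKR1B15), and the last covers coding bases 442 to 501 of AKR1B15. AKR7A2 and AKR7A3 were 92.17% identical over aligned bases.

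RefSeq promoter windows (GRCh38.p14) matched 8 of the 10 genes by symbol; AKR1B10 and AKR1B15 had no entry. Over the 250 bases before their RefSeq starts, AKR1C1 and AKR1C2 were identical at 245 of 246 aligned bases. The part of each window upstream of the GENCODE exon that follows it is shown because the counts of these genes moved apart in H1944. For AKR1C1 this is before the gene's annotated start, and for AKR1C2 it lies in an intron of longer GENCODE transcripts, since that gene is annotated up to base 5018031. The strands are plus for AKR1C1 (chr10:4963165-4963252) and minus for AKR1C2 (chr10:5004024-5004107). All letters are lower case because the 84 bases of AKR1C2 occur without a difference inside the 88 of AKR1C1.
AKR1C1: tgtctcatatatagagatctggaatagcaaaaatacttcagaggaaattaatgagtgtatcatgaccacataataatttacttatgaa
AKR1C2: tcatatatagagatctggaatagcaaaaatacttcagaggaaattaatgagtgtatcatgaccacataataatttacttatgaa

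The core of the antioxidant response element, searched on both strands as TGACNNNGC, occurred in the 250 bases of AKR7A2 alone among these 8 genes, and 10.9% of all 35116 RefSeq windows of that length held it. The AP-1 motif TGANTCA was in none of the 8 windows and in 6.57% of all. A pattern for G-quadruplexes, 4 runs of at least 3 G with loops of 1 to 7 bases on either strand, was in none of the 8 and in 23.5% of all. These matches describe letters in a short window only.

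Library totals ran from 18314224 to 30219850 counts, and values below are counts scaled to library size (CPM) by edgeR's TMM factors over all 10 libraries. APEX1 itself stood at 240 and 239 CPM in the H1944 WT libraries and at 85.5 and 85.8 in the KO libraries, and it fell by 1.48 on the log2 scale (edgeR adjusted p = 6.43e-19). In A549 it stood at 165, 264 and 247 CPM in WT 1 to 3 and at 58.6, 64.3 and 109 in KO 16, 65 and 66, apart but short of the threshold (log2 fold change -1.51, edgeR adjusted p = 0.521). The A549 libraries fall into 2 sets across genotype: WT 1 and KO 65 have 4839 and 5945 counts of the ribosomal gene RNA28SN4, whereas KO 16, KO 66, WT 2 and WT 3 have 0. Of the 8 markers of lung adenocarcinoma epithelium, NKX2-1 was at 0 in H1944 and the 8 summed to 9606 to 9760 CPM in WT and 17150 to 17580 in KO. Of the 6 tested in H1944, 3 were lower, 2 higher and 1 not past the threshold. EPCAM went from 68.8 to 0.931 CPM and CDH1 from 207 to 7.86, while the keratin KRT8 went from 5438 to 9562. In A549 the 8 summed to 10410 to 26430 CPM in WT and 11520 to 25780 in KO, with NKX2-1 at 0.141 CPM or less. None of the 6 tested there passed. EPCAM went from 23.4 to 64.1 CPM in A549, CDH1 from 45.9 to 73.8 and KRT8 from 11019 to 9994. The 4 leukocyte markers summed to 26.41 to 28.34 CPM in H1944 WT and to 51.31 to 53.35 in KO, nearly all of it CD68 (log2 fold change 0.95, edgeR adjusted p = 1.71e-11), with CD3E at 0 in both lines; in A549 they summed to 28.79 to 44.4 in WT and 34.27 to 37.49 in KO. The 4 fibroblast markers summed to 13.05 to 14.94 CPM in H1944 WT and 11.69 to 13.47 in KO, where COL3A1 went from 0.175 to 2.27 CPM (edgeR adjusted p = 1.07e-06) and COL1A1 from 9.89 to 5.76. In A549 they summed to 5.355 to 7.89 in WT and 10.58 to 17.06 in KO. Endothelial markers summed to at most 2.497 CPM. The part of these markers in the changes below was not tested. In bulk RNA, fewer cells of a type and less RNA per cell cannot be told apart.

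**Figure D1:**
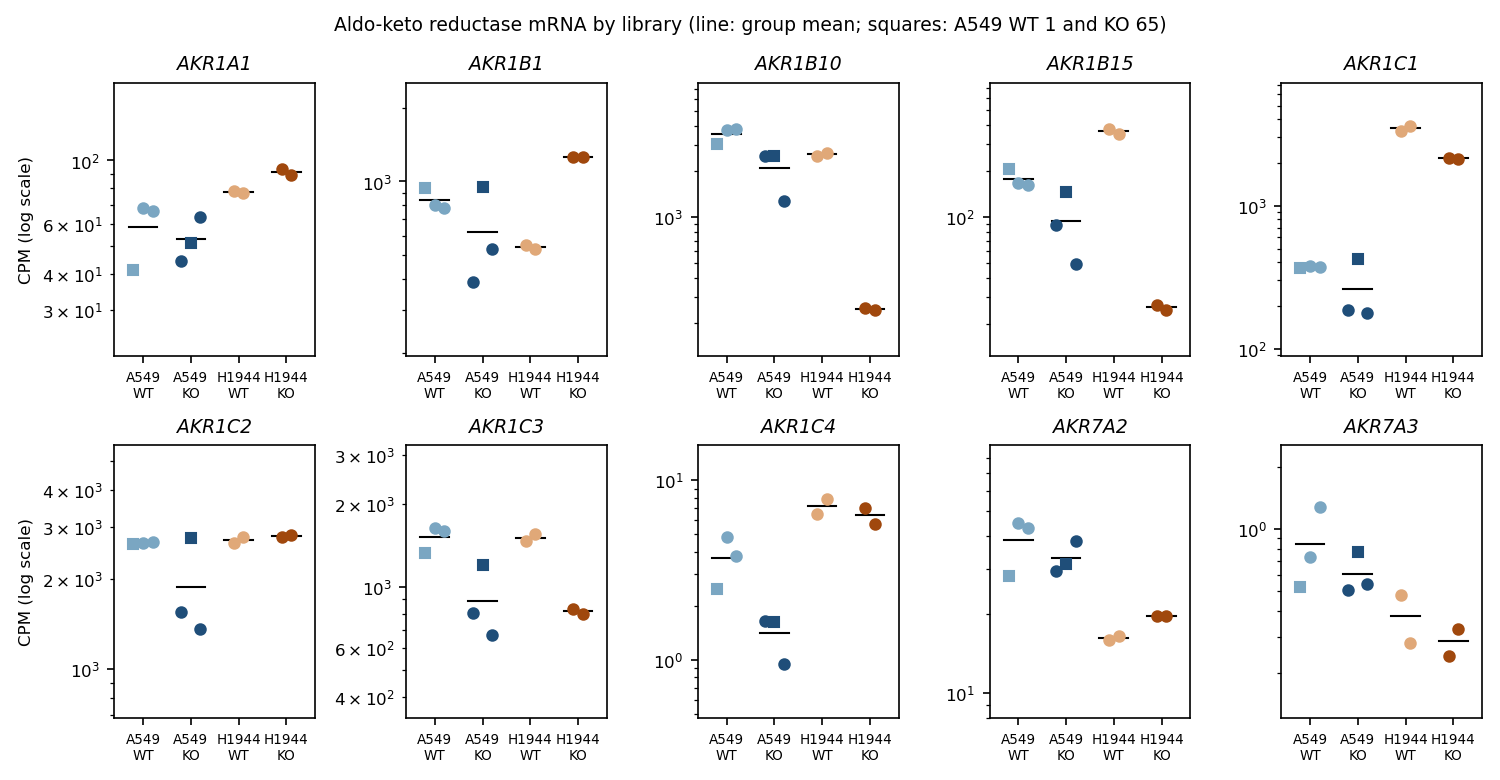
Level of each of the 10 reductase genes in every library, in CPM on a log axis that differs between panels. Points are libraries, squares are A549 WT 1 and KO 65, and lines are group means. In H1944 AKR1B10 went from 2532 and 2658 CPM to 253 and 243, and AKR1B1 from 553 and 532 to 1254 and 1260.02.

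Before knockout the reductases took up a visible part of the transcriptome. The 10 genes together held 0.853% to 0.978% of all counts in A549 WT and 1.14% to 1.19% in H1944 WT. Per kilobase of coding sequence, the highest in A549 WT was AKR1B10, a retinaldehyde reductase known from smokers' lung tumours, at 3724 ± 466 CPM per kb (SD, n = 3). AKR1C2 at 2727 ± 25.4, AKR1C3 at 1560.0 ± 170, AKR1B1 at 884 ± 88.8 and AKR1C1 at 384 ± 8.42 CPM per kb came next. AKR1B15 at 173 ± 23.5, AKR1A1 at 60.01 ± 15.4, AKR7A2 at 35.8 ± 8.54, AKR1C4 at 3.81 ± 1.22 and AKR7A3 at 0.847 ± 0.387 followed. No neighbours in this order came within 1 SD of each other. In A549 KO the means had the same order, but from AKR1B10 down to AKR1A1 neighbours overlapped within 1 SD of their means. These were AKR1B10 (2210.3 ± 749), AKR1C2 (1942 ± 769.7), AKR1C3 (914 ± 281) and AKR1B1 (657 ± 308). AKR1C1 (269 ± 143), AKR1B15 (91.3 ± 47.1) and AKR1A1 (54.2 ± 9.63) followed. These SDs ignore that the genes were measured in the same libraries. In each KO library CPM fell from AKR1C2 through AKR1C3, AKR1B1 and AKR1C1 to AKR1B15. AKR1B10 lay below AKR1C2 in KO 65 and KO 66 but above it in KO 16, and AKR1B15 lay below AKR1A1 in KO 66 only.

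In H1944 WT the order was led by AKR1C1, which inactivates progesterone, at 3561 ± 199.5 CPM per kb (SD, n = 2). AKR1C2 at 2791 ± 99.0 and AKR1B10 at 2728 ± 93.4 CPM per kb overlapped within 1 SD of their means, though AKR1C2 was higher in both libraries. AKR1C3 at 1548 ± 62.3, AKR1B1 at 571 ± 15.7 and AKR1B15 at 352 ± 18.5 CPM per kb followed, and AKR1A1, AKR7A2, AKR1C4 and AKR7A3 came last in the same order as in A549. Dividing by the length of all annotated exons instead put AKR1B10 first in H1944 WT at 1488 CPM per kb, with AKR1C2 at 419.95 and AKR1C1 at 395. In A549 WT it put AKR1B15 at 53.8 CPM per kb above AKR1C1 at 42.5. There AKR7A2 at 21.7 ± 5.18 and AKR1A1 at 18.8 ± 4.84 also changed places. The order of the genes thus depends on which length is used.

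The lines differed most in AKR1C1. It stood at 364, 381 and 374 CPM in A549 WT and at 3324 and 3599 in H1944 WT. That is 9.28-fold higher in H1944 (log2 difference 3.22, approximate SE 0.35, edgeR adjusted p = 0.000201), and every H1944 library lay above every A549 library. Its near copy AKR1C2, which inactivates dihydrotestosterone, stood at 2629, 2645 and 2678 CPM in A549 WT and at 2645 and 2781 in H1944 WT (log2 difference 0.03, SE 0.28, edgeR adjusted p = 0.931). AKR1C3, which makes testosterone from androstenedione and also prostaglandin F, differed by -0.01 on the log2 scale (adjusted p = 0.976). AKR7A2, which reduces succinic semialdehyde, was 2.39-fold lower in H1944 WT (log2 difference -1.26, adjusted p = 0.00268). AKR1B15 (1.03, adjusted p = 0.0439) and AKR1C4 (0.95, adjusted p = 0.0479) also passed, but lost the call under 10 and 8 of 16 alternative settings. In all 4 of the 10 genes passed in this comparison, 3 of them higher in H1944 and 1 lower, beside 43.5% of all genes tested (22.2% higher, 21.2% lower). Each line is a single culture system with its own medium, so line and medium cannot be told apart. Every H1944 library held counts of RNA28SN4 (2935 to 9851), but among the A549 WT libraries only WT 1 did. Line and library set therefore cannot be fully told apart. AKR7A2 stood at 28.1 CPM in A549 WT 1 and at 44.8 and 43.1 in WT 2 and WT 3. The H1944 WT libraries held 15.9 and 16.5 CPM of it. The log2 difference of AKR7A2 ran from -1.42 to -0.984 over the 16 alternative settings.

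In H1944 the reductases moved in opposite directions after APEX1 knockout. Of the 9 genes with enough counts to test, AKR1B10, AKR1B15, AKR1C1 and AKR1C3 fell, AKR1B1, AKR1A1 and AKR7A2 rose, and AKR1C2 and AKR1C4 did not pass. So many genes changed in this line that the count is close to the background: 67.1% of all 16626 genes tested passed at an edgeR adjusted p under 0.05, with 33.2% higher and 33.9% lower. The median log2 fold change of the 9 was -0.166 beside -0.00648 over all genes. AKR1B10 ranked 10 of 16626 by p. These p-values rest on the close agreement of only 2 libraries a group. When all 10 libraries share 1 estimate of the spread, AKR1B10 (edgeR adjusted p = 0.000488) and AKR1B15 (0.000936) still passed, AKR1B1 (0.0536) and AKR1C3 (0.0586) fell just short, and AKR1C1 (0.277), AKR1A1 (0.625) and AKR7A2 (0.499) did not pass. In that fit 2522 of 17677 genes tested passed in all, 1177 higher and 1345 lower.

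AKR1B10, which turns retinaldehyde into retinol and clears lipid aldehydes, stood at 2532 and 2658 CPM in H1944 WT and at 253 and 243 in KO. The groups lay far apart, and the gene fell 10.5-fold (log2 fold change -3.39, approximate SE 0.035, edgeR adjusted p = 1.02e-25). AKR1B15, its neighbour and closest relative, which acts on retinaldehyde and sex steroids, stood at 378 and 351 CPM in WT and at 26.7 and 24.5 in KO. It fell 14.3-fold (log2 fold change -3.83, SE 0.050, edgeR adjusted p = 2.11e-23). The sequences above share 28.4% of the 50-base windows of AKR1B10 with AKR1B15 or a pseudogene. How reads were split between the copies was not tested. The ratio of AKR1B10 to AKR1B15 counts was 6.69 and 7.57 in WT and 9.47 and 9.93 in KO.

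AKR1B1, aldose reductase, which turns glucose into sorbitol in the first step of the polyol pathway, went the other way. It stood at 553 and 532 CPM in H1944 WT and at 1254 and 1260.02 in KO, a 2.32-fold rise (log2 fold change 1.21, SE 0.031, edgeR adjusted p = 8.94e-19). The 3 genes of the subfamily summed to 3464 and 3541 CPM in WT and to 1528 and 1534 in KO. AKR1B10 thus went from 73.1% and 75.0% of the subfamily's counts to 15.9% and 16.5%, and AKR1B1 from 15.03% and 15.97% to 81.8% and 82.5%. Where WT cells had 4.58 and 4.99 AKR1B10 counts per AKR1B1 count, KO cells had 0.193 and 0.202. Per kilobase of coding sequence, AKR1B1 at 1322 CPM per kb came after AKR1C2 at 2877 and AKR1C1 at 2199 in H1944 KO, and AKR1B10 at 261 came after AKR1C3 at 837. By the length of all annotated exons, AKR1B1 at 343 CPM per kb lay above AKR1C1 at 244 there.

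**Figure D2:**
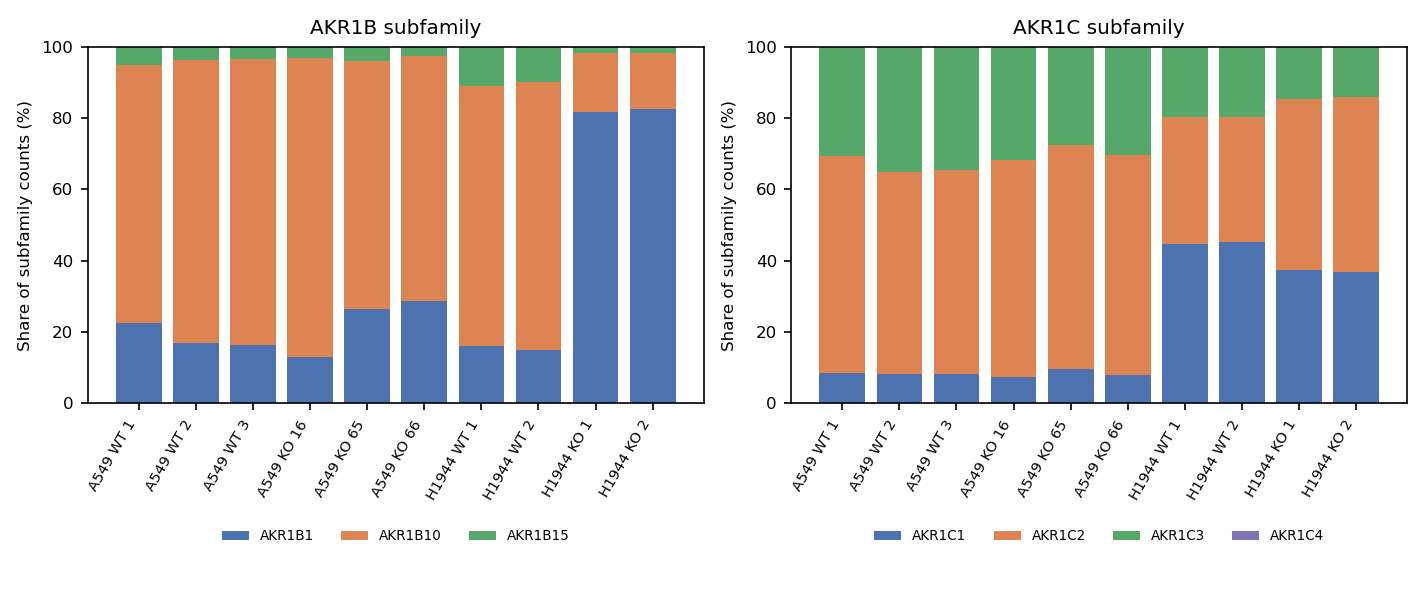
Share of each subfamily's counts held by its members, in percent, in every library. Bars stack to 100%. AKR1B1 takes 81.8% and 82.5% of the AKR1B counts in H1944 KO and at most 28.6% in the other libraries, and AKR1C1 takes 36.8% to 45.3% of the AKR1C counts in H1944 and at most 9.66% in A549. AKR1C4 is too low to be seen.

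The 1C genes moved less and not together. AKR1C1 stood at 3324 and 3599 CPM in H1944 WT and at 2161 and 2113 in KO, and fell 1.62-fold (log2 fold change -0.70, SE 0.033, edgeR adjusted p = 5.76e-13). AKR1C3 stood at 1462 and 1548 CPM in WT and at 829 and 799 in KO, and fell 1.85-fold (log2 fold change -0.89, SE 0.033, edgeR adjusted p = 5.93e-16). In both, each KO library lay below each WT library. AKR1C2 stood at 2645 and 2781 CPM in WT and at 2776 and 2817 in KO, with overlapping libraries (log2 fold change 0.04, SE 0.029, edgeR adjusted p = 0.201). With library size as the only scaling the log2 fold change was -0.00135, so its direction depends on the scaling. Without WT 2 it was 0.08 (edgeR adjusted p = 0.00395), a fit with 1 WT library whose spread is taken from the KO pair. AKR1C4, a liver enzyme of bile acid synthesis, had 149 to 203 counts a library, with 6.47 and 7.86 CPM in WT and 7.02 and 5.75 in KO (log2 fold change -0.17, SE 0.16, adjusted p = 0.386).

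The ratio of AKR1C2 to AKR1C1 counts shows the shift within this near-identical pair. It was 0.773 and 0.796 in H1944 WT and 1.28 and 1.33 in KO, so that AKR1C2 passed AKR1C1. In A549 the ratio was 6.95 to 7.21 in WT and 6.52 to 8.38 in KO, with overlapping groups. AKR1C1 held 44.7% and 45.3% of the subfamily's counts in H1944 WT and 36.8% and 37.4% in KO. The subfamily summed to 7438 and 7935.5 CPM in WT and to 5734 and 5772 in KO.

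AKR1A1, which reduces glucuronate and other aldehydes in most tissues, stood at 78.2 and 77.0 CPM in H1944 WT and at 93.4 and 88.8 in KO (log2 fold change 0.23, SE 0.044, edgeR adjusted p = 8.92e-05). AKR7A2 stood at 15.9 and 16.5 CPM in WT and at 19.8 in both KO libraries (log2 fold change 0.29, SE 0.088, edgeR adjusted p = 0.0062). DESeq2 gave it an adjusted p of 0.0597. These rises were small, 1.17-fold in AKR1A1, though the groups did not overlap in either gene. AKR7A3, an aflatoxin aldehyde reductase of liver, had 6 to 11 counts in H1944 and was not tested there. In all, WT and KO libraries of H1944 did not overlap for 7 of the 10 members, 3 higher and 4 lower in KO, beside 80% of all genes (39.9% higher, 40.1% lower). With 2 libraries a group an exact permutation test cannot give a p below 0.333.

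In A549 no reductase passed the threshold, and only 1 of 15806 genes did (0.00633%), while 895 genes had an unadjusted p under 0.05. DESeq2 called 125 genes there and again none of the 10. All 10 log2 fold changes were below 0, with a median of -0.483 beside 0.0179 over all genes. The 10 values come from the same libraries and are not separate agreements, and the share of all genes below 0 was not computed. WT and KO libraries did not overlap for 4 of the 10, AKR1B10, AKR1B15, AKR1C3 and AKR1C4, each lower in KO, beside 4.92% of all genes lower and 5.65% higher without overlap. For these 4 the 2-sided exact permutation p was 0.1, the smallest that 3 against 3 libraries can give. WT 2 and WT 3 were far more alike than other A549 libraries of 1 genotype. Their counts differed by a chi-square of 1.898 per gene, beside 134.8 to 273.4 for those other pairs. The permutation and the SDs of A549 WT nevertheless take the 3 WT libraries as separate units.

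AKR1B10 stood at 3031, 3769 and 3825 CPM in A549 WT 1, 2 and 3 and at 2509.95, 2516 and 1279.95 in KO 16, 65 and 66. KO 66 lay well below the other KO libraries (log2 fold change -0.72, SE 0.31, edgeR adjusted p = 0.9). AKR1B15 stood at 207, 168 and 162 CPM in WT and at 88.2, 146 and 49.2 in KO (log2 fold change -0.90, SE 0.38, adjusted p = 0.88). AKR1B1 stood at 937, 804 and 779.7 CPM in WT and at 388, 953 and 533 in KO, where KO 65 lay above all WT libraries (log2 fold change -0.41, SE 0.33, adjusted p = 0.995).

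AKR1C3 stood at 1326, 1626 and 1597 CPM in A549 WT and at 803, 1195 and 668 in KO (log2 fold change -0.75, SE 0.26, unadjusted p = 0.0235 from edgeR's model over all genes, adjusted p = 0.795). AKR1C4 stood at 2.49, 4.85 and 3.77 CPM in WT and at 1.65, 1.63 and 0.943 in KO, on 21 to 106 counts a library. It had the largest log2 fold change of the 10 in A549, at -1.36 (SE 0.38, unadjusted p = 0.00977 in the same model, adjusted p = 0.673). AKR1C1 stood at 364, 381 and 374 CPM in WT and at 185, 421 and 177 in KO, and AKR1C2 at 2629, 2645 and 2678 in WT and at 1551, 2745 and 1367 in KO. In both, KO 65 lay above every WT library and KO 16 and KO 66 lay below them. Their log2 fold changes were -0.50 (SE 0.34) and -0.47 (SE 0.30), each with an edgeR adjusted p of 0.995.

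The remaining genes overlapped in A549. AKR1A1 stood at 41.3, 68.2 and 66.6 CPM in WT and at 44.5, 51.4 and 63.1 in KO (log2 fold change -0.12, SE 0.24). AKR7A2 stood at 28.1, 44.8 and 43.1 CPM in WT and at 29.3, 31.4 and 38.5 in KO (-0.20, SE 0.23). AKR7A3 had 11 to 27 counts a library, with 0.526, 0.732 and 1.27 CPM in WT and 0.503, 0.772 and 0.539 in KO (-0.45, SE 0.46), and 1.77% of its 150-base coding windows occur in AKR7L. In all 3 genes WT 1, the library with ribosomal counts, was the lowest of the WT libraries.

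**Figure D3:**
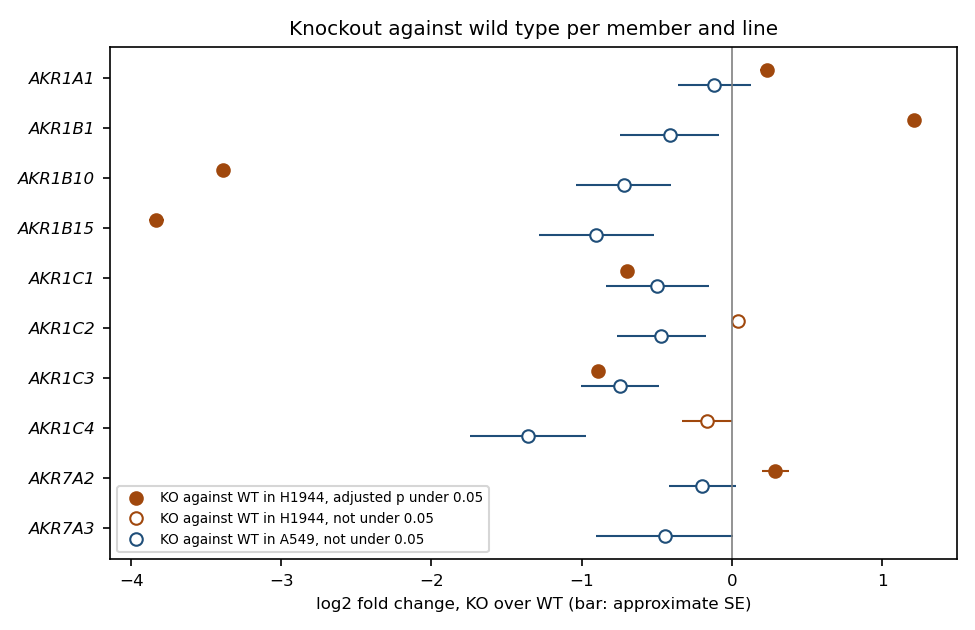
Log2 fold change of KO over WT for each of the 10 genes, H1944 in orange and A549 in blue, with bars of 1 approximate standard error; filled points passed an edgeR adjusted p under 0.05. AKR1B10 at -3.39 and AKR1B15 at -3.83 in H1944 lie far from all other values, and all 10 A549 values lie below 0 with none filled.

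The library sets of A549, told apart by RNA28SN4 alone, bear on these values. In the set without it, the counts of KO 16 and KO 66 differed by a chi-square of 134.8 per gene. Those of WT 2 and WT 3 differed by 1.898. WT 2 and WT 3 may therefore differ from KO 16 and KO 66 in more than genotype, which was not tested. Against WT 1, the library of its own set, KO 65 was lower for 4 of the 10 genes, with a median difference of 0.043 in log2(CPM + 0.5). Against the mean of WT 2 and WT 3, KO 16 was lower for all 10 (median -0.838) and KO 66 for all 10 (median -1.02). The share of all genes below 0 in these differences was not computed, so the counts have no background. Medians of the lists of related genes described below ran from -1.05 to 0.0703 in KO 16 and from -0.442 to 0.335 in KO 66. For AKR1B10 the differences were -0.27 in KO 65, -0.60 in KO 16 and -1.57 in KO 66, and for AKR1C3 they were -0.15, -1.01 and -1.27. AKR1B15 (-0.50, -0.90 and -1.73) and AKR1C4 (-0.48, -1.15 and -1.73) were likewise lower in all 3. For AKR1C1 they were 0.21, -1.03 and -1.09, so KO 65 did not share the direction of the others. For APEX1 they were -1.35, -2.11 and -1.22, so the knocked-out gene was lower in each. These are differences of single KO libraries, with no test. Fitted alone, the 2 KO and 2 WT libraries without RNA28SN4 gave log2 fold changes of -0.98 for AKR1B10 (edgeR adjusted p = 0.502), -1.11 for AKR1C3 (adjusted p = 0.402) and -1.04 for AKR1C1 (adjusted p = 0.386). None of the 10 genes and 0 of 15776 genes in all passed in that fit, and 1551 had an unadjusted p under 0.05.

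**Figure D4:**
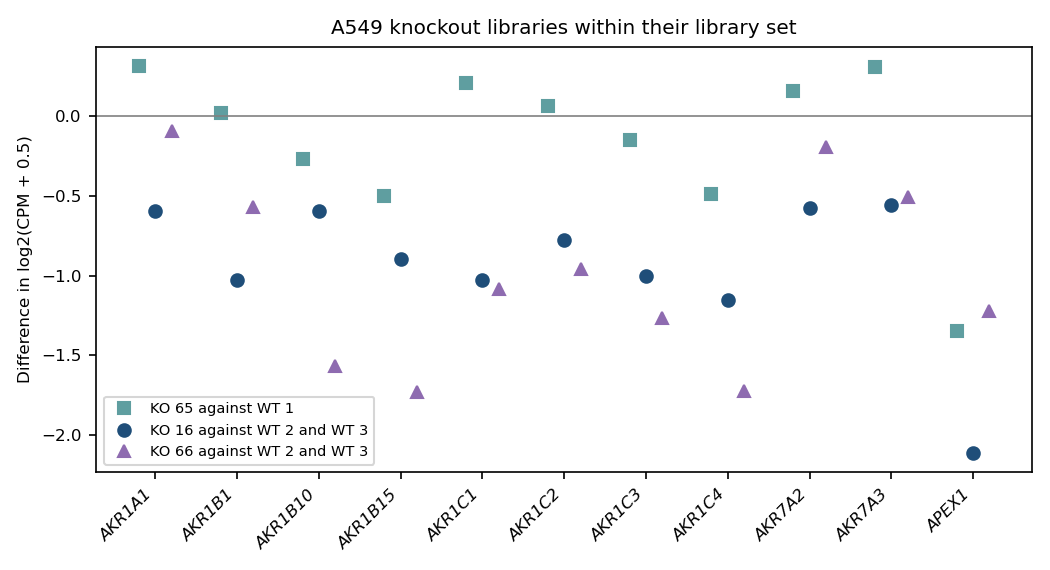
Difference of each A549 KO library from the WT libraries of its own set, in log2(CPM + 0.5), for the 10 genes and APEX1. Squares are KO 65 against WT 1, circles KO 16 and triangles KO 66 against the mean of WT 2 and WT 3. KO 16 and KO 66 lie below 0 for all 10 genes, and KO 65 for 4 of them. The matching share over all genes was not computed.

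The change in AKR1B10 differed between the lines. In 1 fit of all libraries, the A549 change minus the H1944 change was 2.63 on the log2 scale for AKR1B10 (SE 0.41, edgeR adjusted p = 0.00633) and 2.91 for AKR1B15 (SE 0.53, edgeR adjusted p = 0.0121): both were reduced more in H1944. These were 2 of the 10 genes, beside 6.95% of all genes that passed in either direction (4.1% with the A549 change above the H1944 change, 2.85% with it below). Without H1944 KO 1 or KO 2 the adjusted p of AKR1B10 became 0.05 and 0.0525 and that of AKR1B15 0.0724 and 0.0812, all short of the threshold, and without H1944 WT 1 that of AKR1B15 was 0.0562. AKR1B1 had a difference of -1.64 (SE 0.46, adjusted p = 0.0694). It passed with DESeq2 (-1.65, adjusted p = 0.00535), with a term for the A549 library sets (-1.73, adjusted p = 0.0056) and without A549 KO 65 (-2.08, adjusted p = 0.00486). For AKR1C1 the difference was 0.18 (SE 0.49, adjusted p = 0.879) and for AKR1C3 0.12 (SE 0.34, adjusted p = 0.895), and both turned negative without A549 KO 65. For the other 5 genes the adjusted p lay between 0.187 (AKR1C4, -1.23) and 0.988 (AKR7A3, -0.07).

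The reductases can be set beside other genes of their pathway, on lists drawn up with earlier results of these data known. Of 34 known NRF2 targets outside the family, 25 fell, 5 rose and 4 did not pass in H1944, with a median log2 fold change of -0.298, beside 33.9% of all genes lower and 33.2% higher. GPX2, a glutathione peroxidase, stood at 791 and 806 CPM in WT and at 39.5 and 39.4 in KO (log2 fold change -4.34, edgeR adjusted p = 9.44e-27), a larger drop than that of AKR1B10. GSR, glutathione reductase, fell by 1.68 and UGDH, which makes UDP-glucuronate, by 1.18 on the log2 scale. NQO1, the quinone reductase often used as a readout of NRF2, rose: 1313 and 1370 CPM in WT, 2845 and 2831 in KO (log2 fold change 1.08, edgeR adjusted p = 2.39e-18). Genes of this list, like the reductases, thus passed in both directions.

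All 10 genes of the NRF2 regulator list passed in H1944, 4 higher and 6 lower, beside 67.1% of all genes tested (33.2% higher, 33.9% lower). The largest change was in MAFF, a small MAF partner of NRF2, which rose from 8.03 ± 0.186 to 23.5 ± 0.135 CPM (mean ± SD, n = 2 each), or by 1.55 on the log2 scale. BACH1, a repressor at the same sites, fell by 0.74, and SQSTM1, an autophagy receptor that binds KEAP1, rose by 0.38. NFE2L2 itself stood at 221 and 224 CPM in WT and 169 and 166 in KO (log2 fold change -0.41), and KEAP1 at 107 and 103 and at 76.9 and 76.2 (log2 fold change -0.46). In A549 none of the 34 targets and none of the 10 regulators passed. The targets' median there was -0.128, with 9 of 34 above 0. CYP4F11, a fatty acid hydroxylase, had the smallest p of that list in A549, at 73.0 ± 2.54 CPM in WT and 31.97 ± 2.27 in KO (mean ± SD, n = 3 each). Its log2 fold change was -1.17, with an edgeR adjusted p of 0.505.

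**Figure D5:**
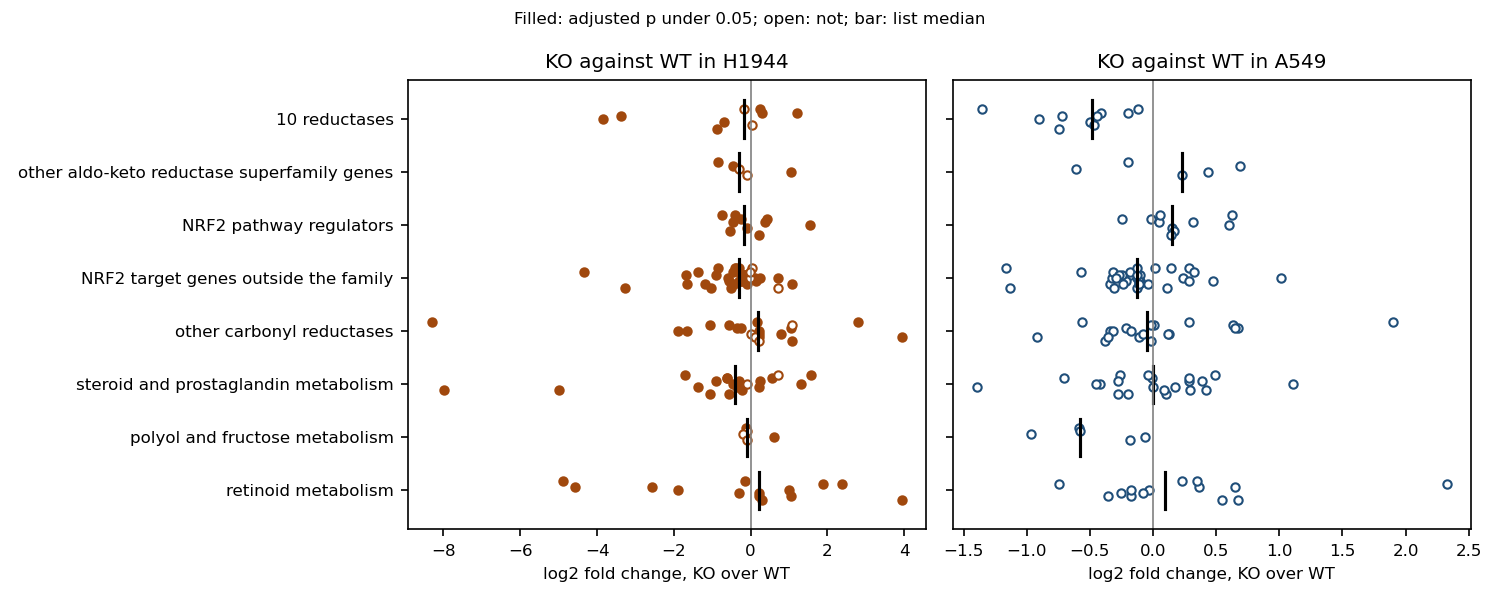
Log2 fold change of KO over WT for the 10 reductases and 7 lists of related genes, H1944 left and A549 right, with different horizontal scales. Each point is a gene, filled where the edgeR adjusted p was under 0.05, and bars are medians. The reductase medians are -0.166 in H1944 and -0.483 in A549, and no point is filled in A549.

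Over all 10 libraries, the genes of at least 5 CPM whose log2 CPM was most like that of AKR1B10 were CS (Pearson's r = 0.986), TTI2 (0.985), PPP2R2A (0.981), TNFRSF10D (0.979) and H2AZ2 (0.978). AKR1B15 had r = 0.859 and AKR1B1 r = -0.57 with AKR1B10. Pearson's r does not measure the size of a change. In H1944 the log2 fold change was -0.49 for CS, -0.87 for TTI2 and -0.68 for PPP2R2A. It was -1.30 for TNFRSF10D and -0.79 for H2AZ2, beside -3.39 for AKR1B10. The genes most like AKR1C2 were LOC100287896 (0.898), DGKD (0.879), SFR1 (0.876), DPYSL2 (0.874) and CTSC (0.874). These are descriptions over 10 libraries that share 2 lines and 2 genotypes.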

How the data were processed

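Poly(A) RNA was sequenced as 150-base pairs. The submitters' processing notes name Trim Galore 0.5.0, HISAT2 2.1.0, featureCounts 1.6.4, DESeq2 and hg38, with no role or order. Strandedness, annotation and the handling of multiply aligned reads are not given in the sources used here. The authors deposited raw counts per gene symbol, 1 table per line, without normalization. No per-sample column was left out.

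After filterByExpr (minimum count 10) and TMM scaling, edgeR 4.0.16 (R 4.3.3) compared KO with WT in each line by its robust quasi-likelihood test, and the lines in 1 fit of all 10 libraries. Adjusted p-values (Benjamini-Hochberg over all genes tested, threshold 0.05) are from edgeR unless another tool is named. SE is approximate: the size of the log2 fold change divided by the root of the F statistic. DESeq2 1.42.0 and limma 3.58.1 served as alternatives. The fits were also run on simulated counts drawn without the A549 library sets, and no result here rests on that run. Coding sequences came from GENCODE v29 and promoters from RefSeq.

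The members and lists were chosen with earlier results of these data known. Named are the 10 members, APEX1, up to 4 genes of smallest adjusted p per list and line, the 5 patterns most like the highest member of subfamilies 1B and 1C, and the most changed NRF2 regulator; NFE2L2, KEAP1, RNA28SN4 and the markers were named after their values were seen. Same-numbered H1944 libraries did not deviate together (correlation 0.0205). No paired analysis was possible in A549 because the KO columns carry no replicate number.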

Additional observations from a re-analysis of the deposited data

Results flagged for a closer look

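AKR1B10 and AKR1B15 were looked at again because their change after APEX1 knockout differed between the lines by a test of that difference. In 1 fit of all 10 libraries the A549 change minus the H1944 change was 2.63 on the log2 scale for AKR1B10 and 2.91 for AKR1B15. Fitted in each line alone, the changes were -0.72 in A549 and -3.39 in H1944 for AKR1B10, and -0.90 and -3.83 for AKR1B15. In A549 KO 65, KO 16 and KO 66 the within-set differences of AKR1B10 were -0.27, -0.60 and -1.57 in log2(CPM + 0.5), none as large as the change in H1944.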

How the results depend on the processing

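Most single-gene values kept their direction and their side of the threshold: 91 of 99 in H1944 (9 genes, 11 alternatives), 140 of 140 in A549 (10 genes, 14 alternatives), 144 of 160 for the difference between lines and 130 of 160 for the WT lines (16 alternatives each). The fit of all 10 libraries left 2 of the 7 H1944 reductase calls, beside 2522 of 17677 genes in all. Leaving out 1 library, which in H1944 leaves a lone library assumed to vary like the other groups, gave 7 to 8 reductase calls in H1944, 0 in A549, 0 to 3 for the difference between lines and 2 to 5 for the WT lines. The replicate block in H1944 gave 7 reductase calls, beside 11228 of 16626 genes, and changed no reductase call. No paired analysis was possible in A549 because its KO columns carry no replicate number. Over all genes A549 had 125 calls with DESeq2, 2 without the filter, 16 in the fit of all 10 libraries, 2 with a term for the library sets, and 0 among the libraries without RNA28SN4 or with any library left out. The difference between lines had 2318 calls with DESeq2, 2759 with the term for the sets and 397 to 2892 with 1 library left out, and the WT lines 4138 to 9740.

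Reversals were in values near 0. They were AKR1C2 in H1944 with library size alone (-0.00135), and, for the difference between lines, AKR1C1 and AKR1C3 without A549 KO 65 (range with 1 library left out -0.342 to 0.398 and -0.152 to 0.286) and AKR7A3 with library size alone (0.0677) or with 1 library left out (-0.504 to 0.348). Between WT lines AKR1C2 reversed with the term for the sets (-0.299) and without H1944 WT 2 (range with 1 library left out -0.000257 to 0.0693), and AKR1C3 with DESeq2 or its size factors (0.00139), library size alone (0.0835) or 1 library left out (-0.0789 to 0.0412). The cause was not tested. Depth limits AKR7A3 (6 to 27 counts a library) and AKR1C4 in A549 (21 to 106).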

Other observations

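Genes that share substrates with the reductases are described here from lists drawn up with earlier results of these data known. In the steroid and prostaglandin list, 13 of 20 tested genes fell in H1944, 5 rose and 2 did not pass, with a median log2 fold change of -0.411 beside -0.00648 over all genes. PTGES, prostaglandin E synthase, rose from 97.6 ± 6.09 to 240.5 ± 4.70 CPM (mean ± SD, n = 2 each), which is 1.30 on the log2 scale. STS, steroid sulfatase, fell by 1.36 and HSD17B4, a peroxisomal enzyme of beta-oxidation, by 1.05 on the log2 scale. In the retinoid list 8 of 14 rose and 6 fell (median 0.222). RDH10, which oxidises retinol to retinaldehyde, fell from 64.7 ± 0.545 to 17.4 ± 0.539 CPM, and the carotenoid-cleaving enzyme BCO1 fell by 4.57 on the log2 scale. In A549 none of these genes passed, and ALDH1A3, a retinaldehyde dehydrogenase, had the smallest p of the retinoid list (21.5 ± 1.22 CPM in WT, 105.4 ± 50.1 in KO, SD, n = 3 each; edgeR adjusted p = 0.505).

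In the polyol and fructose list of 5 tested genes, SORD, which oxidises the sorbitol made by AKR1B1, rose in H1944 by 0.60 on the log2 scale, ALDOA fell by 0.11 and 3 did not pass. In A549 all 5 log2 fold changes of that list were below 0 and none passed. Among the 20 tested carbonyl reductases of other families 9 rose, 7 fell and 4 did not pass in H1944 (median 0.188); CBR1, CBR3, NQO1 and PTGR1 are also on the list of NRF2 targets, PTGR1 also on the steroid and prostaglandin list, and RDH10, RDH11, RDH13, RDH14, DHRS3 and DHRS9 also on the retinoid list. Of 5 further aldo-keto reductase superfamily genes, KCNAB2, a potassium channel subunit, rose by 1.05, AKR1C8P and AKR1E2 fell by 0.86 and 0.46, and 2 did not pass. The background shares in H1944 were 33.2% higher and 33.9% lower.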
